A study of Rattus norvegicus with 12 samples.

Results

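The genes described here are 9 chemokine and innate defence genes: the chemokine receptor Cxcr4, the chemokines Cxcl12, Ccl19, Ccl2 and Cx3cl1, and the secreted defence proteins Lcn2, Reg3g, S100a8 and S100a9. Members were found by gene symbol, and all 9 genes had a probe, 9 probes of the 22517 on the array, which name 13336 genes. Reg3g, Lcn2, Ccl19 and Cxcr4 were chosen by their large rises in signal between these same 12 hearts, so their differences between the groups are given as a description without a test. The other 5 were included as their ligands, receptors or relatives, and the tests below concern those.

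The samples were left ventricles of male rats of the outbred HsdBrl:WH Wistar background aged 2 months, 6 transgenic for VEGF-B (VEGF-B TG) and 6 littermates without the transgene (WT), each on its own Illumina RatRef-12 array. The transgene is driven by the αMHC promoter, which is active in cardiomyocytes, so the model has extra VEGF-B from that cell type only. The labels give no treatment for either group. Values are bead intensities as deposited, and differences are given on the log2 scale of background-corrected, quantile normalized signals (VEGF-B TG minus WT, with the standard error, SE, n = 6 per group). A probe was called detected on an array at a detection p under 0.05, was tested when detected on at least 6 of the 12 arrays, and was called changed at an adjusted p under 0.05. Of the 9054 probes tested, 21.9% were called, 11.6% higher and 10.3% lower in VEGF-B TG hearts, and the median difference over all of them was -0.01. Of the 9 genes, 7 were tested and 5 were called higher, of which 4 had been chosen for that, and S100a8 and S100a9 were below the detection filter. Between 8820 and 9655 probes were detected in VEGF-B TG hearts and between 8452 and 9251 in WT hearts. Cardiomyocyte markers were present as the tissue label implies, with 11 of 12 on the array and all 11 tested. Of these 2 were lower in VEGF-B TG hearts by limma, Ryr2 at -0.32 ± 0.08 (adjusted p = 0.0117) and Myl2 at -0.33 ± 0.09 (adjusted p = 0.0218). The Ryr2 value is that of its brightest probe, and its other tested probes were not called (-0.24 ± 0.08, adjusted p = 0.0514, and -0.08 ± 0.07, adjusted p = 0.416).

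Chemokines are small secreted proteins that guide cells through G protein-coupled receptors. CXCR4 answers to CXCL12, and in growing vessels it is known as a receptor of endothelial tip cells, the cells that lead a sprout, as well as of leukocytes. LCN2 (lipocalin 2) starves bacteria of iron by binding their siderophores, REG3G is a lectin that kills Gram-positive bacteria, and S100A8 and S100A9 form calprotectin, a metal-binding complex that neutrophils carry in bulk. LCN2 is also stored in neutrophil granules, but other cells make it when stimulated, cardiomyocytes among them.

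The stretches before the start sites of the 4 strongly risen genes are shown to let their promoters be compared. They are from RefSeq on build GRCr8, all on the minus strand, and are written 5′ to 3′ over up to 250 bases before the annotated start: chr13:42634289-42634538 for Cxcr4, chr5:61761165-61761414 for Ccl19, chr3:36081852-36082030 for Lcn2 and chr4:112484739-112484988 for Reg3g. For Lcn2 the 71 bases nearest the start were left out because they lie within the gene as annotated. Capitals mark matches, on either strand, to a TATA box (TATAAA), a GC box (GGGCGG), the hypoxia response cores ACGTG and GCGTG, and the NF-kB consensus. Matches to TTCNNNGAA, TGANTCA and TTNNGNAAT were also searched for.
Cxcr4: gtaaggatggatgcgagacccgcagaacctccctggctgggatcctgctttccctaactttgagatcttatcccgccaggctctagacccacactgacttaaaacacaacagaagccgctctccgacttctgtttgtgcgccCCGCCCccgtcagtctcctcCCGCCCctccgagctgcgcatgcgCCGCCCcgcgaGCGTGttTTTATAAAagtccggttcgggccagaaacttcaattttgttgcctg
Ccl19: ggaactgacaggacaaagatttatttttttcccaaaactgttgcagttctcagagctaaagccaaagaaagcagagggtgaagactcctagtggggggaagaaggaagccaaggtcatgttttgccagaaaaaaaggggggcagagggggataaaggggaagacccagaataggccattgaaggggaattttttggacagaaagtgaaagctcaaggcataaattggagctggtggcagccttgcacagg
Lcn2: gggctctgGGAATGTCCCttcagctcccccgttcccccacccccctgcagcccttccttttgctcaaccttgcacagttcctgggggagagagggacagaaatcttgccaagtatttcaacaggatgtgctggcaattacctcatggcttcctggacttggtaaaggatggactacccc
Reg3g: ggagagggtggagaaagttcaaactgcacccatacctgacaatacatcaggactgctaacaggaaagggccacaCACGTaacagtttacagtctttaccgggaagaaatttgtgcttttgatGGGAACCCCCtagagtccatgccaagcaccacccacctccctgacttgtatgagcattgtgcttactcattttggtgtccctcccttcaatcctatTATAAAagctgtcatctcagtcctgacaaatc
The Cxcr4 stretch held 3 GC boxes, a GCGTG core and a TATA box read on both strands with overlapping letters. The NF-kB consensus matched in the stretches of Lcn2, at bases -242 to -233 from the start, and Reg3g, at bases -128 to -119. The position for Lcn2 counts the 71 bases that were left out. It occurred in 3.54% of all 33465 rat promoter stretches of 250 bases, and among the 7 members with such a stretch it occurred in 2. The Reg3g stretch also held a TATA box and an ACGTG core, while that of Ccl19 held no match. The TATA box occurred in 12.9% of all stretches, the GC box in 30.5%, ACGTG in 16.6% and GCGTG in 25.9%. A match is a description of letters and not a binding site.

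Cxcr4 was higher in every VEGF-B TG heart. Its intensity had a lowest value of 602.8, a median of 847.6 and a highest of 1407 in VEGF-B TG hearts, against 391.6, 438.0 and 477.8 in WT hearts. The groups did not overlap, as was the case with VEGF-B TG higher for 5.74% of all probes tested (10.8% in either direction), and VEGF-B TG 6 and VEGF-B TG 2 were the highest hearts. The log2 difference was 1.39 ± 0.17, a signal 2.62-fold higher, and it had rank 10 among the 9054 probes by size of rise. The VEGF-B TG hearts spread over a range of 1.23 on the log2 scale and the WT hearts over 0.39.

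**Figure D1:**
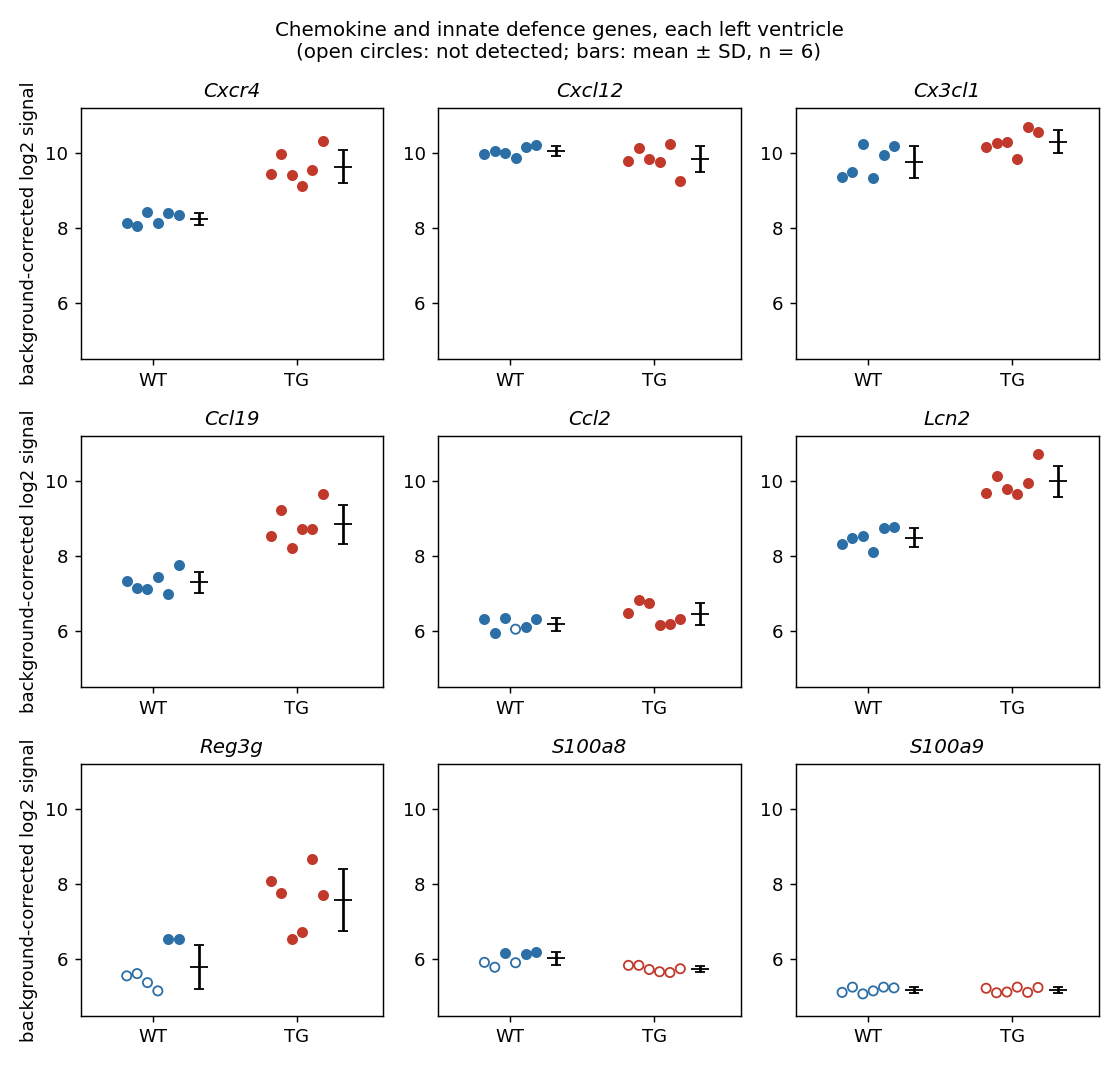
Background-corrected log2 signal of the 9 genes in each left ventricle, 6 WT (blue) and 6 VEGF-B TG (red) hearts per panel, with the mean and SD to the right of the points and open circles for arrays without detection. Cxcr4, Ccl19 and Lcn2 separate the groups and Reg3g only just does, while Cxcl12, Cx3cl1, Ccl2, S100a8 and S100a9 overlap.

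Cxcl12, the chemokine that activates CXCR4, did not pass the test. Its intensity in VEGF-B TG hearts ran from 741.2 through a median of 1046 to 1299, and in WT hearts from 1044 through 1224 to 1322. The groups overlapped, and the heart with the least Cxcl12, VEGF-B TG 6, was the heart with the most Cxcr4. Over 12 hearts, after each gene's group mean was removed, their Pearson correlation was -0.29 (permutation p = 0.523, adjusted p = 0.684). Spearman's rho was 0.13, and without VEGF-B TG 2 and 6 the Pearson correlation was 0.28. The difference was -0.21 ± 0.13 (limma, adjusted p = 0.290), with a 95% interval from -0.49 to 0.08, so a rise of Cxcl12 like that of Cxcr4 lies outside the interval. Ackr3, the other CXCL12 receptor, which scavenges the ligand, measured -0.05 ± 0.15 (adjusted p = 0.836). Dpp4, a protease that inactivates CXCL12, measured -0.32 ± 0.13 (adjusted p = 0.104).

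Mif, an inflammatory cytokine that can also engage CXCR4, was higher in VEGF-B TG hearts. Its intensity was 3762, 4460 and 5768 (lowest, median, highest) in VEGF-B TG hearts and 3010, 3448 and 3544 in WT hearts. The groups did not overlap, and the difference was 0.55 ± 0.09 (limma, adjusted p = 0.000718). Cd74, the main receptor of MIF, measured 0.13 ± 0.08 (adjusted p = 0.238). Mif was 1 of 3 genes called, all higher, among 14 tested of 22 direct partners of the members (receptors, proteases and alternative ligands), whose median difference was 0.01.

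Of 30 genes that carry CXCR4 signals inside the cell, 18 were tested, 7 were higher and 2 lower, with a median difference of 0.15. Gnai2, the inhibitory G protein subunit through which chemokine receptors signal, had an intensity of 5889, 7067 and 7976 (lowest, median, highest) in VEGF-B TG hearts and 3401, 3610 and 3707 in WT hearts. The groups lay far apart, by 0.79 on the log2 scale, with a difference of 1.12 ± 0.08 (limma, adjusted p = 2.565e-07). Rgs4, which switches such G proteins off, rose by 0.72 ± 0.08 (adjusted p = 2.651e-05), while Rgs3, another regulator of this kind, was lower, at -0.34 ± 0.07 (adjusted p = 0.00193). Plcb3, a phospholipase activated by G proteins, was also lower (-0.58 ± 0.10, adjusted p = 0.000914), and was detected in 2 VEGF-B TG and 6 WT hearts.

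Of 23 chemokine receptor genes 8 were tested, with a median difference of -0.01, and of the 7 other than Cxcr4, 0 were called by limma (0 at an unadjusted p under 0.05). Among 36 chemokine ligand genes, 16 were tested, of which 5 were higher and 1 lower, with a median of 0.27. The plot of chemokine differences shows both families. Cxcr4 and Ccl19, chosen for their rises, are in these counts.

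**Figure D2:**
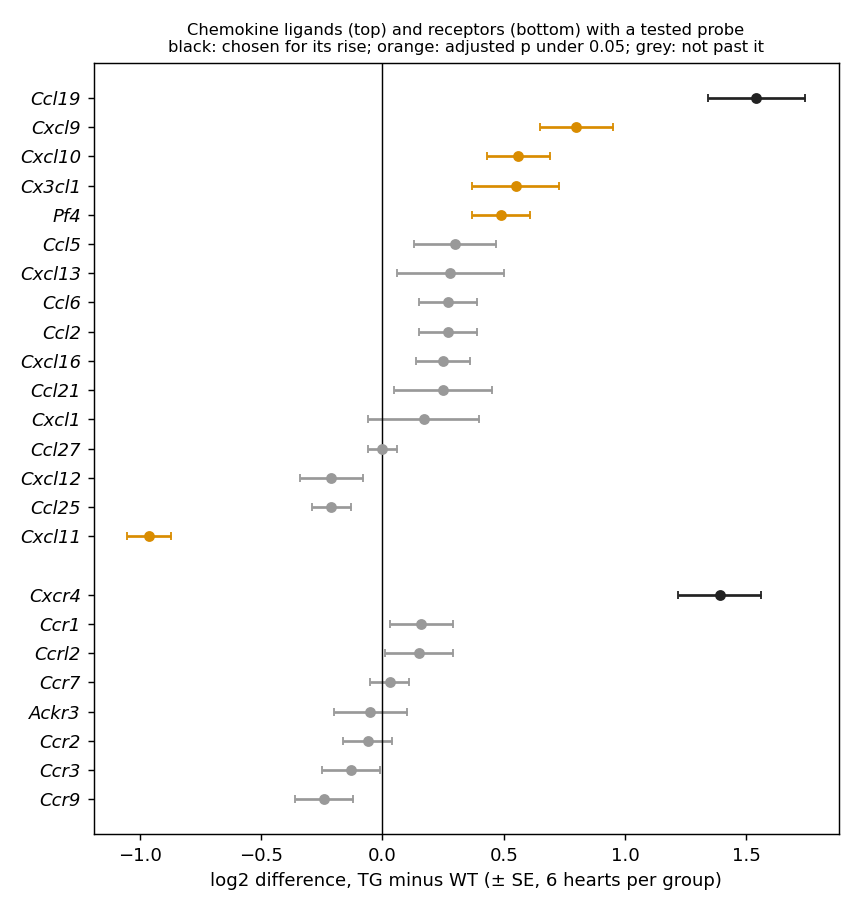
Log2 difference (VEGF-B TG minus WT, ± SE, 6 hearts per group) of the 16 chemokine ligand genes and the 8 chemokine receptor genes with a tested probe. Ccl19 and Cxcr4 (black) lie farthest to the right and Cxcl11 farthest to the left, and the 7 receptors other than Cxcr4 did not pass the test.

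Ccl19, a chemokine of lymphoid tissue that draws T cells and mature dendritic cells through CCR7, was higher in every VEGF-B TG heart. Its intensity was 442.8, 525.7 and 929.9 (lowest, median, highest) in VEGF-B TG hearts and 252.9, 289.8 and 346.0 in WT hearts. The groups did not overlap, and VEGF-B TG 6 and VEGF-B TG 2 were again the highest hearts. The log2 difference was 1.54 ± 0.20, with rank 7 among the probes tested, and 1.04 when no background was subtracted.

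The partners of Ccl19 did not pass the test. Ccr7, its receptor, measured 0.03 ± 0.08 (adjusted p = 0.857), and Ccl21, the other CCR7 ligand, 0.25 ± 0.20 (adjusted p = 0.394). Of 22 markers of T, B and dendritic cells, 17 were on the array, 9 were detected on no array and 4 were tested, of which Cd83, a surface protein of activated dendritic cells, was called higher (0.50 ± 0.11, adjusted p = 0.00502). Their signals after background correction and normalization, summed over all probes of the 17 genes, came to 1660 to 1902 in VEGF-B TG hearts and 1510 to 1748 in WT hearts. Among 12 markers of lymphatic endothelium and lymphoid stroma, 6 were tested and 0 were called by limma (1 higher at an unadjusted p under 0.05). Lyve1, a lymphatic endothelial receptor and the brightest of them, measured 0.28 ± 0.15 (adjusted p = 0.202).

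Cx3cl1 (fractalkine), a chemokine that endothelial cells hold on their surface, was higher in VEGF-B TG hearts by a margin close to the threshold. Its intensity was 917.7, 1388 and 1717 (lowest, median, highest) in VEGF-B TG hearts and 785.8, 999.3 and 1295 in WT hearts. The groups overlapped, with VEGF-B TG 2, 3, 5 and 6 above every WT heart and VEGF-B TG 4 the lowest of its group. The difference was 0.55 ± 0.18 (limma, adjusted p = 0.0445), with a 95% interval from 0.16 to 0.94, and the call was lost without any of 9 of the 12 single arrays (adjusted p up to 0.0980). Adam17, a protease that sheds CX3CL1 from the membrane, rose by 0.38 ± 0.09 (adjusted p = 0.00970). Adam10, the other sheddase, measured 0.43 ± 0.19 (adjusted p = 0.116), and Cx3cr1, the receptor, was detected in 1 VEGF-B TG and 1 WT heart and was not tested.

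Ccl2, which draws monocytes through CCR2, did not pass the test. Its intensity was 187.0, 211.6 and 252.3 (lowest, median, highest) in VEGF-B TG hearts and 181.3, 199.6 and 225.4 in WT hearts. The groups overlapped, with VEGF-B TG 2 and 3 above every WT heart in intensity, and the gene was detected in 6 VEGF-B TG and 5 WT hearts. The difference was 0.27 ± 0.12 (limma, adjusted p = 0.136), with a 95% interval from 0.01 to 0.53. Ccr2 measured -0.06 ± 0.10 (adjusted p = 0.702).

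The chemokines that share the receptor CXCR3 moved apart. Cxcr3 itself was detected in 1 VEGF-B TG and 1 WT heart and was not tested. Cxcl9 rose by 0.80 ± 0.15 (limma, adjusted p = 0.00154) and Cxcl10 by 0.56 ± 0.13 (adjusted p = 0.00784). Cxcl10 was near background, detected in 6 VEGF-B TG and 3 WT hearts. Its groups overlapped, and its difference was 0.26 when no background was subtracted. Cxcl11 was lower, with an intensity of 620.8, 669.6 and 731.6 (lowest, median, highest) in VEGF-B TG hearts and 1068, 1179 and 1466 in WT hearts. Every WT heart lay above every VEGF-B TG heart, and the difference was -0.96 ± 0.09 (adjusted p = 7.053e-06). All 3 genes are known as interferon-induced.

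Lcn2 showed the widest gap between the groups among the 9 genes. Its intensity was 813.0, 1065 and 1798 (lowest, median, highest) in VEGF-B TG hearts and 402.1, 486.6 and 580.7 in WT hearts. The lowest VEGF-B TG heart lay above the highest WT heart by 0.88 on the log2 scale, and the order of the VEGF-B TG hearts began with 6, 2 and 5 as for Cxcr4. The difference was 1.49 ± 0.17, a signal 2.81-fold higher, with rank 8 among the probes tested. Slc22a17, described as an LCN2 receptor, measured -0.30 ± 0.15 (adjusted p = 0.178), and Mmp9, a metalloproteinase that LCN2 binds and stabilises, was detected in 1 VEGF-B TG heart and 0 WT hearts.

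Most other genes typical of neutrophils were not detected in these hearts. Of 20 neutrophil markers, 19 were on the array, and apart from Lcn2, S100a8 and S100a9 these were 16 genes, of which 13 were detected on no array. The genes of the granule proteins Mpo, Elane, Ltf, Ctsg, Ngp and Prtn3 and of the receptors Csf3r, Cxcr1 and Cxcr2 were among those 13. The background-corrected, normalized signal summed over the probes of the 16 genes was 727.8 to 755.4 in VEGF-B TG hearts and 735.2 to 809.5 in WT hearts. Camp, the gene of the granule peptide cathelicidin, measured -0.22 ± 0.12 (adjusted p = 0.221). Probes without detection had median intensities of 136.2 to 149.1 per array, a range within which several neutrophil genes lay.

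**Figure D3:**
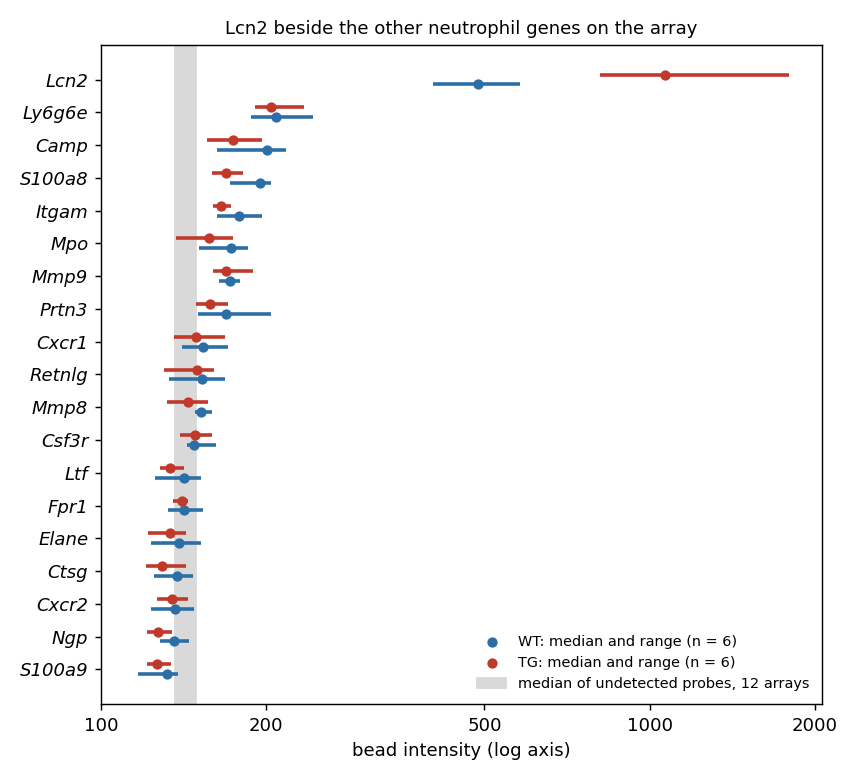
Bead intensity (log axis) of the 19 neutrophil genes on the array, with the median (point) and the range (line) over 6 WT (blue) and 6 VEGF-B TG (red) hearts, and a grey band for the median intensity of undetected probes on the 12 arrays. Lcn2 separates the groups, with WT hearts at 402.1 to 580.7 and VEGF-B TG hearts at 813.0 to 1798, while for the other genes the group ranges overlap.

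S100a8 and S100a9, the calprotectin subunits, were at or near background. S100a8 was detected in 0 VEGF-B TG and 3 WT hearts, with an intensity of 159.6, 168.8 and 181.3 (lowest, median, highest) in VEGF-B TG hearts and 171.6, 194.6 and 204.3 in WT hearts. The groups overlapped, with VEGF-B TG hearts toward the low side. As the gene was detected in only 3 WT hearts and 0 VEGF-B TG hearts, the difference of its values is not read as a fold difference. S100a9 was not well above background in any heart, with intensities from 121.2 to 134.0 in VEGF-B TG hearts and from 116.8 to 138.2 in WT hearts. Both probes were below the detection filter and were not tested in the main fit. Ager, the gene of RAGE, a receptor for S100 proteins, rose by 0.37 ± 0.11 (limma, adjusted p = 0.0250), and Tlr4, the other calprotectin receptor, was detected in 0 hearts of either group. Ager was low, with overlapping intensities of 213.6 to 264.2 in VEGF-B TG and 180.9 to 227.9 in WT hearts. Its difference was 0.17 when no background was subtracted.

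Reg3g was the most variable of the 9 genes. Its intensity was 219.1, 353.3 and 532.6 (lowest, median, highest) in VEGF-B TG hearts and 128.6, 165.7 and 226.4 in WT hearts, and it was detected in 6 VEGF-B TG and 2 WT hearts. VEGF-B TG 3 and 4 lay at the level of WT 5 and 6 while VEGF-B TG 5 was highest, so the deposited intensities overlapped, and after normalization the groups met with a gap of 0.00 on the log2 scale. The difference was 1.78 ± 0.35, with rank 2 among the probes tested, and 0.97 when no background was subtracted. Reg3b, a close relative of the same gene family, was detected in all 12 hearts and measured 0.00 ± 0.15 (limma, adjusted p = 0.991). Extl3, described as a REG protein receptor, was detected in 0 hearts of either group.

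Among 32 antimicrobial and acute phase genes, 11 were tested, 5 were higher and 1 lower, with a median of 0.23, and Lcn2 and Reg3g are 2 of the 5. Cfd, the complement protease factor D, rose by 0.52 ± 0.13 (limma, adjusted p = 0.0109), while Cfb, complement factor B, on which factor D acts, was lower, at -0.89 ± 0.18 (adjusted p = 0.00232). The intensity of Cfb was 209.0 to 274.5 in VEGF-B TG hearts and 284.2 to 421.0 in WT hearts, without overlap. Its difference was -0.47 when no background was subtracted. Of 28 NF-kB and IL-6 target genes, 14 were tested, 5 were higher and 0 lower by limma (7 and 0 at an unadjusted p under 0.05), with a median of 0.18. They included Icam1, an endothelial adhesion molecule (0.37 ± 0.07, adjusted p = 0.00187), and Timp1, a metalloproteinase inhibitor (0.88 ± 0.22, adjusted p = 0.0102). Birc3, an inhibitor of cell death (0.52 ± 0.13, adjusted p = 0.0106), and Myd88, an adaptor of Toll-like receptors (0.31 ± 0.09, adjusted p = 0.0271), were also higher. Icam1 was detected in 4 WT hearts and Birc3 in 2. The other 9 were not called, among them Nfkbia (-0.00 ± 0.21, adjusted p = 0.992), Vcam1 (-0.01 ± 0.11, adjusted p = 0.973) and Cebpb (0.00 ± 0.13, adjusted p = 0.991). Il6, Tnf and Socs3 were detected on no array.

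Of 16 tip cell genes, 10 were tested and 5 were higher, Cxcr4 among them, with a median of 0.80. Unc5b, a netrin receptor, rose by 1.02 ± 0.16 (limma, adjusted p = 0.000356), Mcam, an adhesion molecule, by 0.99 ± 0.19 (adjusted p = 0.00224), and Dll4, a Notch ligand, by 0.78 ± 0.20 (adjusted p = 0.0113). Apln and Esm1, other genes typical of tip cells, measured 0.10 (adjusted p = 0.716) and -0.21 (adjusted p = 0.597). Of 21 hypoxia response genes, 15 were tested, 1 was higher and 1 lower, with a median of 0.04. These were Hmox1, heme oxygenase (1.28 ± 0.23, adjusted p = 0.00148), and Eno1, a glycolytic enzyme (-0.48 ± 0.11, adjusted p = 0.00511).

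Markers of several cell types differed between the groups along with the 4 risen genes, and in these whole-tissue samples a changed number of cells of a type (more or fewer) cannot be told apart from more or less RNA per cell. Of 20 endothelial markers, 15 were tested and 9 were higher, with a median of 0.60 and a summed background-corrected, normalized signal, over all probes of the list, of 21980 to 26020 in VEGF-B TG and 14590 to 16990 in WT hearts. Emcn and Tie1, both endothelial surface proteins, each measured 0.65 ± 0.07 (limma, adjusted p = 1.959e-05 and 2.529e-05). The 6 not called were Tek (0.19), Vwf (0.04), Erg (-0.09), Clec14a (-0.11), Sox17 (-0.12) and Cldn5 (-0.24), with adjusted p by limma of 0.204 or more. Of 12 pericyte and smooth muscle markers, 7 were tested, 6 were higher and 1 lower, with signals summed in the same way of 6004 to 7272 against 4603 to 5147. Rgs5, among the higher ones, was detected in 6 VEGF-B TG hearts and 1 WT heart, so it passed the filter mainly through the VEGF-B TG group. Vtn, the gene of the matrix protein vitronectin, rose by 0.81 ± 0.08 (adjusted p = 9.38e-06) and Kcnj8, a potassium channel subunit, by 0.88 ± 0.15 (adjusted p = 0.00100), while Tagln, a contractile protein gene of smooth muscle, was the lower one (-0.49 ± 0.11, adjusted p = 0.00448). Of 16 macrophage markers, 10 were tested, 8 were higher and 1 lower, with such sums of 3269 to 5099 against 3010 to 3578. Among the higher ones, Tyrobp was detected in 6 VEGF-B TG and 2 WT hearts, and Fcgr3a in 5 VEGF-B TG hearts and 1 WT heart. Fcer1g, an Fc receptor subunit, rose by 0.60 ± 0.11 (adjusted p = 0.00151), whereas C1qc, a complement C1q chain, was lower, at -2.04 ± 0.19 (adjusted p = 4.551e-06). The other C1q chains went the opposite way, C1qa at 0.52 ± 0.13 (adjusted p = 0.00992) and C1qb at 0.60 ± 0.14 (adjusted p = 0.00772). In these 3 lists Robo4, Cnn1 and Adgre1, a defining marker each, were detected on no array. Fibroblast markers had 1 of 12 tested higher, the protease gene Fap (0.96 ± 0.18, adjusted p = 0.00192), and 1 lower, the growth factor receptor gene Pdgfra (-0.44 ± 0.12, adjusted p = 0.0201), and platelet and erythroid markers 1 of 7 higher, Pf4, a platelet chemokine (0.49 ± 0.12, adjusted p = 0.0105). The part of these cell types in the rises of Cxcr4, Ccl19, Lcn2 and Reg3g was not tested.

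Whether the genes moved together from heart to heart was examined within the groups, after each gene's group mean was removed. This takes out the mean rise, but not differences between VEGF-B TG hearts in the size of the rise. The log2 SD was 0.44 in VEGF-B TG and 0.16 in WT hearts for Cxcr4, and 0.40 and 0.25 for Lcn2. Of 21 pairs among the 7 tested genes, Cxcr4 with Lcn2 was the pair whose Pearson correlation passed adjustment, with r = 0.88 over 12 hearts (permutation p = 0.00084, adjusted p = 0.0176). Spearman's rho was 0.77 (permutation p = 0.00595, adjusted p = 0.122) and did not pass. The correlation was 0.95 in the 6 VEGF-B TG hearts and 0.66 in the 6 WT hearts, and 0.75 without VEGF-B TG 2 and 6, the hearts farthest from the median of Cxcr4. Of the 6817 named probes compared, Lcn2 had rank 11 by likeness to Cxcr4, and the median r was -0.02.

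**Figure D4:**
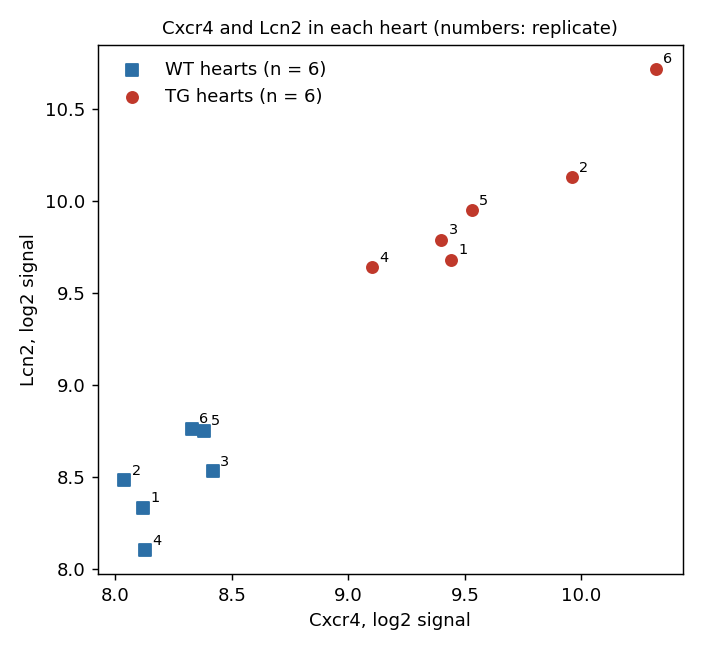
Log2 signal of Lcn2 (vertical) against that of Cxcr4 (horizontal) in each of 6 WT (blue squares) and 6 VEGF-B TG (red circles) hearts, numbered by replicate. VEGF-B TG 6 and 2 are the highest for both genes and VEGF-B TG 4 the lowest of its group, and within groups the Pearson correlation was 0.88.

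For Cxcr4 with Ccl19, r was 0.69 (permutation p = 0.0481, adjusted p = 0.226) and rho 0.50 (permutation p = 0.144, adjusted p = 0.414). Without VEGF-B TG 2 and 6 r was 0.24, so this relation rested on those hearts. Reg3g followed another order, with VEGF-B TG 5 and 1 highest. Its correlation with Lcn2 was 0.45 (permutation p = 0.192, adjusted p = 0.575), with rho 0.55 (permutation p = 0.0793, adjusted p = 0.333). The correlation was 0.54 without VEGF-B TG 6 and WT 4, 0.26 in VEGF-B TG hearts and 0.89 in WT hearts. Reg3g was detected in only 2 WT hearts, so its WT values are in part background.

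The genes whose pattern within the groups was most like that of each risen gene are given as a description over 12 hearts. They were Sparcl1 (r = 0.91), Mpzl1 (r = 0.90) and Atf4 (r = 0.90) for Cxcr4, and Cldn5 (r = 0.94), Ap3s1 (r = 0.93) and Nup54 (r = 0.93) for Lcn2. For Ccl19 they were Rpl3 (r = 0.89), Prph (r = 0.87) and Tgm2 (r = 0.85), and for Reg3g Laptm5 (r = 0.86), Kazald1 (r = 0.84) and Dag1 (r = 0.82). Without VEGF-B TG 6 and WT 6, the hearts farthest from the median of Ccl19, r was 0.70 for Rpl3, 0.89 for Prph and 0.55 for Tgm2. With the farthest 2 hearts of each gene left out, r was 0.66 to 0.91 for the genes listed with Cxcr4, Lcn2 and Reg3g. Those for Reg3g rest in part on WT hearts in which it was not detected.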

How the data were processed

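Total RNA from the left ventricle of 12 rats was labelled as biotinylated cRNA and hybridised to Illumina RatRef-12 BeadChips. The first deposited table held bead intensity values and a detection p-value per probe and array, summarised by the authors with GenomeStudio without background subtraction. A further deposited table held quantile normalised log2 values, made by the authors with Chipster. For both programs the version is not given in the sources used here. Quantile normalising the intensities anew gave log2 values within 0.005 of it.

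Background was corrected from the detection p-values with neqc (offset 16) of limma 3.58.1 in R 4.3.3, followed by quantile normalisation and log2 transformation. Probes detected (p under 0.05) on at least 6 arrays were fitted with lmFit and eBayes, with Benjamini-Hochberg adjustment of the p-values over all 9054. The 95% intervals come from the same fit. Correlations used 100000 2-sided permutations of hearts within groups and were adjusted over 21 pairs. Fits and correlations were tested on simulated data. Figures were drawn with matplotlib 3.10.9 under Python 3.11.15.

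Groups and replicate numbers came from the sample titles. Arrays of the same number did not all deviate together (correlations of -0.145 to 0.227 over 6 pairs) and no source ties the numbers to litters, so no pairing was used. The highest correlation between any arrays was also 0.227, and a fit with the replicate number as a block is given at the end. No source used here gave chip positions, so chips could not be examined as a batch, and the number of arrays limits the precision. Symbols came from the platform annotation (13787 probes with 1 symbol, 0 with several, 8730 with none), of which 13747 were updated to GRCr8. Where a gene had several probes, the tested probe with the highest mean signal stood for it in the lists. Promoter stretches were found for 7 of 9 genes.

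The members and gene lists were chosen with earlier results of these data known. Named genes were all 9 members, from each pathway list up to 4 and from each cell type list up to 2 called genes with the smallest p, or the brightest where none was called, and the 3 genes most like each of the 4 risen genes. Other genes named were chosen after their values were seen, apart from the partners of the members.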

Additional observations from a re-analysis of the deposited data

How the results depend on the processing

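Cxcr4, Ccl19, Lcn2 and Reg3g were higher in VEGF-B TG hearts under every alternative that measured them. Without background correction, and likewise in the deposited log2 table, the differences were smaller in size. They were 1.09 for Cxcr4, 1.22 for Lcn2, 1.04 for Ccl19 and 0.97 for Reg3g, the last 2 falling most. Cx3cl1 measured 0.48, Ccl2 0.12 and Cxcl12 -0.18. For S100a8, at or near background, the log2 values differed by -0.14 against -0.27, which is not read as a fold difference. The cause was not tested. Under the stricter detection filter (p under 0.01) Reg3g and Ccl2 could not be tested. Cx3cl1 kept its direction but was no longer called under median scaling (0.55, adjusted p = 0.0682), no filter (0.55, adjusted p = 0.103) or a variance prior with trend and robust estimation (0.55, adjusted p = 0.0732). It ranged from 0.46 to 0.65 when single hearts were left out. It was lost without any of VEGF-B TG 1, 2, 3, 5 or 6 or WT 1, 2, 4 or 5. Without a filter, 2 chemokine ligands, 2 antimicrobial genes and 1 neutrophil marker, S100a8 (limma, adjusted p = 0.0338), were lower. S100a8 was detected in 0 VEGF-B TG and 3 WT hearts, so that call is of a probe at or near background. With the stricter filter 3 antimicrobial genes were higher and 0 lower by limma, because fewer genes were tested. With single hearts left out, 1 to 2 chemokine ligands and 0 to 1 partners of the members were lower, the higher counts without VEGF-B TG 3. Counts of higher genes fell to 3 NF-kB and IL-6 targets, 2 tip cell genes and 5 macrophage markers at the lowest, and reached 2 for hypoxia genes and for T, B and dendritic cell markers, 0 to 2 for fibroblast markers and up to 2 for lymphatic markers. Lower counts reached 1 for CXCR4 signal genes and 0 for hypoxia genes and macrophage markers. The correlation of Cxcr4 with Lcn2 was 0.88 to 0.91 across processing alternatives and 0.73 to 0.92 with single hearts left out.

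With the replicate number as a block, 1024 probes were higher and 904 lower, and Cx3cl1 was 0.55 higher (adjusted p = 0.00610). For 3 of 6 VEGF-B TG arrays the best correlation was with the WT array of the same number. The block changed no call of a member, and among the lists 4 partners in place of 3, 4 antimicrobial genes in place of 5, and 2 hypoxia genes and 2 fibroblast markers in place of 1 each were higher.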
